A study of Homo sapiens with 11 samples.

Results

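COXFA4L3 (gene 84419, older names C15orf48 and NMES1) was followed through 11 Affymetrix HG-U133 Plus 2.0 arrays of MDA-MB-231 cells, an established human breast cancer line of the triple-negative type. It was chosen by its log2 values in these same 11 arrays, which had been seen to move with those of inflammatory genes, so its own values are given as a description, without a test. It is 1 of the 19775 genes measured, and 1 of the 54675 probe sets read it (223484_at). IL6, CXCL1 and TNFAIP3, 3 genes set beside it from the start, were read by 1, 1 and 2 probe sets.

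All cells spent 4 h in 10% charcoal-stripped serum before a treatment of 3 h. The control was untreated (2 arrays). E2-BSA, a conjugate of estradiol with bovine serum albumin, was given at 1 µM (2 arrays). There was 1 array each for free estradiol at 1 µM, the carrier BSA at 1 µM, the vehicle ethanol at 0.1%, the antagonists ICI and G15 at 10 µM, and E2-BSA at 1 µM with ICI or with G15 at 10 µM. The labels do not say whether duplicates came from separate cultures, and every array is of this 1 cell line, so the spread between arrays may be technical and their number limits the precision.

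COXFA4L3 encodes a small mitochondrial protein related to COXFA4, a subunit of cytochrome c oxidase (complex IV of the respiratory chain). It is known to be induced in macrophages and epithelial cells during inflammation, where it can take the place of COXFA4 in the complex. Its transcript is also the host of miR-147b, a microRNA known to act on COXFA4 mRNA, so that 1 gene gives a protein and a small RNA that both bear on the same subunit.

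On GRCh38.p14 the gene lies on chromosome 15 from 45430610 to 45433340, and the mature miR-147b-3p lies inside it on the plus strand, at chr15:45433098-45433118. The microRNA is shown because it is the gene's other product, beside its namesake miR-147a from chr9:120244985-120245004 (minus strand); the sequences are RefSeq's, and capitals mark the seed, bases 2 to 8.
hsa-miR-147b-3p: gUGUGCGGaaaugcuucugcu
hsa-miR-147a: gUGUGUGGaaaugcuucugc
The seeds differ, and of 2545 mature human microRNAs in the RefSeq table only miR-147b-3p itself carries its seed. No probe set was assigned to MIR147B, so the microRNA was not measured on its own.

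The promoters of COXFA4L3 and of the 3 comparison genes are shown because the 4 transcripts were all high in the BSA array. The kB motif, the binding sequence of NF-kB, and TATANA (the letters of a TATA box) were searched on both strands in the 250 bases before each start site, in RefSeq's GRCh38.p14 windows. Capitals mark kB matches in the comparison genes and TATANA matches in COXFA4L3. The COXFA4L3 window is chr15:45430360-45430609 (plus strand), and the other 3 are stretches of 60 bases around the kB matches, at chr7:22727102-22727161, chr4:73869289-73869348 and chr6:137867173-137867232 (all plus strand). The TNFAIP3 window searched, chr6:137867009-137867258, lies inside the gene, which runs from 137866349 to 137883312. Its positions therefore count from a start site within the gene.
COXFA4L3: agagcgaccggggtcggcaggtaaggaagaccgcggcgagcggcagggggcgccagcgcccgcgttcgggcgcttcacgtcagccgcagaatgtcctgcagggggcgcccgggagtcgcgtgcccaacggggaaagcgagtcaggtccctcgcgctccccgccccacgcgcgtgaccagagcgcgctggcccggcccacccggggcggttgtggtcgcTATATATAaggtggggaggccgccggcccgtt
IL6: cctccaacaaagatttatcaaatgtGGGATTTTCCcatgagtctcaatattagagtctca
CXCL1: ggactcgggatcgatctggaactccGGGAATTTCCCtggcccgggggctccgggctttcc
TNFAIP3: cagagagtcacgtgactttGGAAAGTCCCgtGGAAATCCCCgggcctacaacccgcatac
A kB match began at position -73 from the IL6 start, at -79 and, overlapping it, -78 in CXCL1, and at -67 and -55 in TNFAIP3, and there was none in the COXFA4L3 window. Over all 35116 promoter windows of this length, 9.96% held a kB match. TATANA matched COXFA4L3 from position -32, in overlapping copies, and none of the other 3 genes, against 17.7% of all windows. Among genes listed below as most like COXFA4L3, ICAM1 also had no kB match and a TATANA match, at -30. CCL20 had both, kB at -79 and TATANA at -29, and EFNA1 had neither. CXCL3 and IRF1 had kB matches and no TATANA, and CD83 had a window with kB only and another with TATANA only. CSF3 and RELB, also listed below, had no window among those searched. These are matches of letters only, and binding was not measured.

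The values are log2 values centred per probe set, with no absolute level and no measure of signal over background, so the labelled cell type could not be checked against its markers. The arrays part into sets of 3 and 8 by the poly-A spike-ins, bacterial transcripts added before labelling. These averaged 1.40 to 1.62 (log2, 24 probe sets) in the first control, the first E2-BSA and the estradiol array, and -0.56 to 0.10 in the other 8. Differences were therefore read within a set where possible, and fits across all genes used limma with additive terms for the treatments and the set. The set itself was a large difference: 24.1% of all genes were called between the sets (limma, adjusted p under 0.05), 14.1% higher and 10.0% lower in the set of 3.

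COXFA4L3 was high in 4 arrays and low in 7. In the set of 3 it stood at 3.37 in the first control, 2.86 with estradiol and 2.01 in the first E2-BSA array. In the set of 8 it stood at -1.31 in the second control, -1.45 in the second E2-BSA array, -1.16 with ethanol, -1.17 with ICI, -1.34 with E2-BSA and ICI, -1.09 with G15, -1.19 with E2-BSA and G15, and 1.09 with BSA. All 3 arrays of the high spike-in set thus lay above all 8 of the other, by at least 0.92, and the BSA array was the single one of the 8 apart from the rest, 2.19 above the next.

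**Figure D1:**
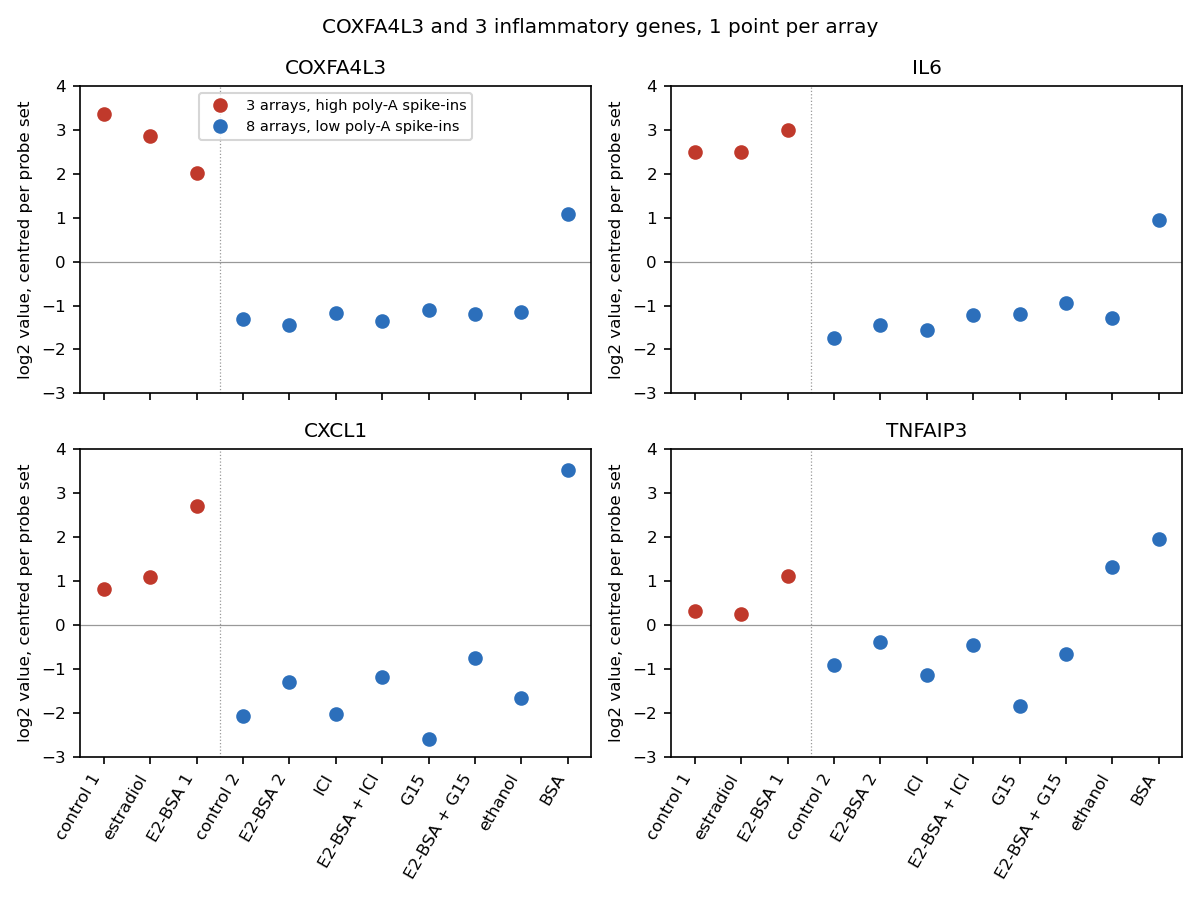
Log2 values centred per probe set (vertical axis) of COXFA4L3, IL6, CXCL1 and TNFAIP3 in the 11 arrays, 1 point per array, with the 3 arrays of high poly-A spike-ins in red and the other 8 in blue. COXFA4L3 lies between -1.45 and -1.09 in 7 arrays and at 1.09 in the BSA array, while TNFAIP3 spans -1.83 to 1.32 over the same 7.

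The zero of this scale is not a level of any array. The values of the G15 and the BSA array, -1.09 and 1.09, mirror each other, which places zero midway between BSA and the highest of the 7 low arrays. The 7 low arrays had an SD of 0.13 and a range of 0.36, over 6 different treatments and the second control. Of all genes, 36.7% had an SD as small or smaller in these 7 arrays, so this flatness was nothing unusual among genes. Their order therefore has no support, and neighbouring values in it, such as -1.17 with ICI and -1.16 with ethanol, lie closer than that SD. With values from whole cultures, fewer cells with the transcript and less transcript per cell cannot be told apart.

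The duplicates showed the set difference directly. COXFA4L3 was 4.67 higher in the first than in the second control, the 5th largest of 19775 differences, and 3.47 higher in the first than in the second E2-BSA array, the 11th largest. The limma fit put the set difference at 4.07 ± 0.28 (SE). IL6, an inflammatory cytokine, differed by 4.23 and 4.44 in the same pairs, CXCL1, a neutrophil-attracting chemokine, by 2.90 and 4.01, and TNFAIP3, an inhibitor of NF-kB signalling, by 1.23 and 1.48. Above 1 in the control pair were 3.45% of all genes and in the E2-BSA pair 2.98%. COXFA4L3 thus shared with IL6 a difference between duplicates larger than any of its differences within a set given here, and whether the spike-ins or the RNA preparation had a part in it was not tested.

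Within the set of 8, the carrier protein BSA had the largest difference. With BSA, COXFA4L3 was 2.40 above the second control, the 7th largest of all genes, 2.55 above the second E2-BSA array (4th largest) and 2.25 above ethanol (4th largest). Of all genes, 0.202% were above 1 in BSA minus the second control, where the median gene was at 0.19. IL6 was 2.68 higher than in the second control, CXCL1 5.62, the largest of all genes, and TNFAIP3 2.86. In the fit COXFA4L3 was at 2.25 ± 0.36 (SE) for BSA minus control and at -2.69 ± 0.36 for E2-BSA minus BSA. There was 1 BSA array, and without the set term the first of these values was 0.21 and the second -0.66.

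With BSA, COXFA4L3 stayed under its values in the other set. It was 0.92 below the lowest array of the set of 3, and that of IL6 was 1.55 below it. CXCL1 and TNFAIP3 went the other way, since the BSA array was the highest of all 11 for both, at 3.54 and 1.96. Among the 4 arrays in which COXFA4L3 was high, its order was the first control, estradiol, first E2-BSA and BSA, and CXCL1 had exactly the reverse order with 0.82, 1.10, 2.71 and 3.54.

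**Figure D2:**
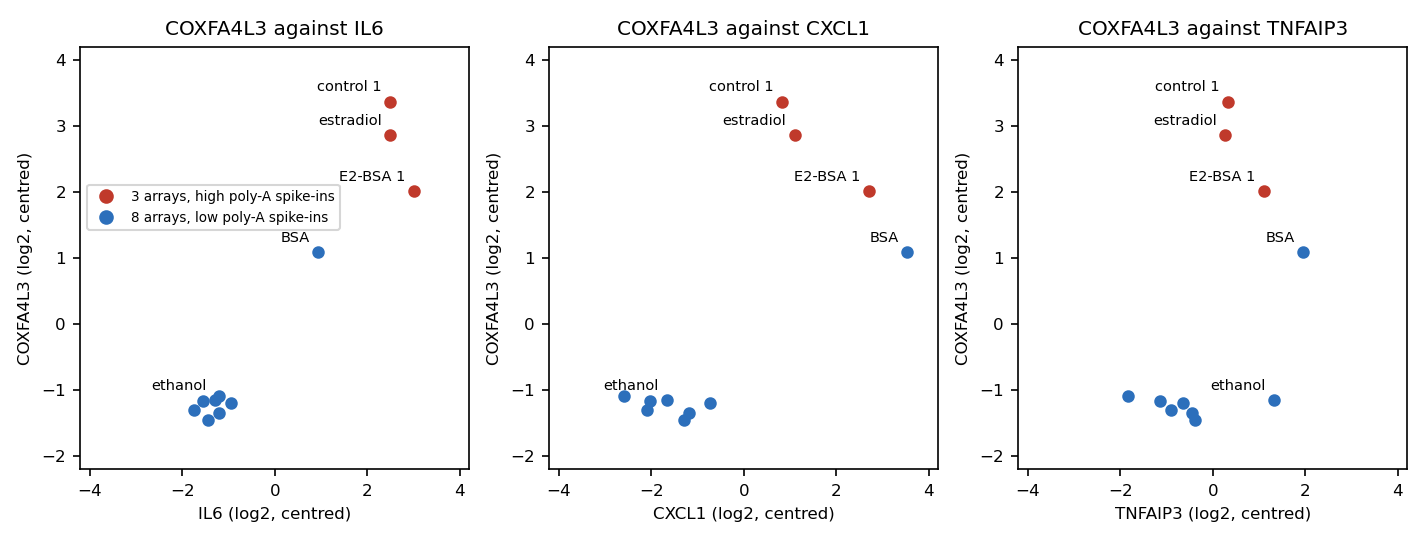
COXFA4L3 (vertical axis) against IL6, CXCL1 and TNFAIP3 (horizontal axes), log2 values centred per probe set, 1 point per array, with the set of 3 in red and the set of 8 in blue. Of the 4 arrays with high COXFA4L3, the first control is highest for COXFA4L3 at 3.37 and lowest for CXCL1 at 0.82, and the ethanol array has TNFAIP3 at 1.32 with COXFA4L3 at -1.16.

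In sign, the differences of COXFA4L3 with E2-BSA were opposite to those of the 3 comparison genes, though most of them were small. COXFA4L3 was lower with E2-BSA than without it in each of the 4 pairs: by -1.36 between the first arrays, -0.15 between the second, -0.17 in the presence of ICI and -0.10 in the presence of G15. IL6 was higher in the same pairs by 0.51, 0.30, 0.35 and 0.26. CXCL1 was higher by 1.89, 0.78, 0.84 and 1.85. TNFAIP3 was higher by 0.78, 0.53, 0.69 and 1.18. Of all genes, 8.26% were lower and 5.14% were higher in all 4 pairs, and 6.96% and 7.08% with each array centred on its median.

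The size of the COXFA4L3 difference came from 1 pair. The first E2-BSA array against the first control gave the 20th lowest of 19775 differences, whereas the other 3 pairs lay near the SD of 0.13 among the 7 low arrays, and with each array centred on its median the G15 pair was at -0.02 and the other 3 at -1.35, -0.17 and -0.16. In the fit, which averages the pairs, E2-BSA minus control was at -0.44 ± 0.20 (SE), and without the first control or without the first E2-BSA array it was at -0.14. The fit called no gene in this comparison (limma, 0 of 19775, 0%; 927 at an unadjusted p under 0.05).

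**Figure D3:**
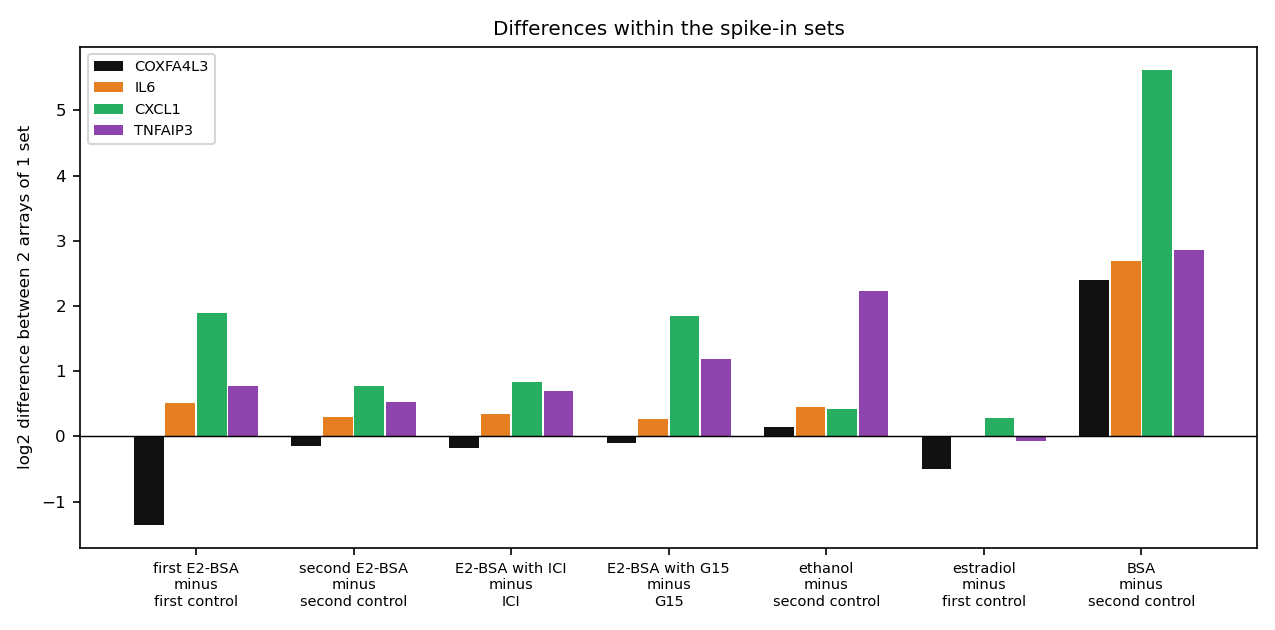
Log2 differences between 2 arrays of the same spike-in set (vertical axis, bars from 0), for COXFA4L3, IL6, CXCL1 and TNFAIP3 in 7 comparisons, 1 array on each side and no replicate. In the 4 comparisons of E2-BSA, COXFA4L3 lies between -1.36 and -0.10 and the other 3 genes lie above 0, and in BSA minus the second control all 4 lie between 2.40 and 5.62.

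Estradiol had an array in the set of 3 only. There COXFA4L3 was lower by -0.51 than in the first control and higher by 0.85 than in the first E2-BSA array, the 96th largest of all genes in that difference. IL6, CXCL1 and TNFAIP3 differed from the first control by 0.0011, 0.28 and -0.07, and from the first E2-BSA array by -0.51, -1.60 and -0.85. Both hormone preparations were given at 1 µM, but with 1 array on each side the difference between them has no replicate check. The fit, which takes the control from both sets, gave -0.05 ± 0.36 (SE) for estradiol minus control, a value that was 0.71 without the first control and -0.51 without the first E2-BSA array.

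TNFAIP3 and COXFA4L3 parted in the ethanol array. With ethanol TNFAIP3 was 2.22 higher than in the second control, the 5th largest of all genes, and both of its probe sets were high. COXFA4L3 was 0.15 higher, the 5757th largest, and IL6 and CXCL1 were 0.46 and 0.42 higher. The fit gave 0.0010 ± 0.36 (SE) for COXFA4L3 in ethanol minus control, and -2.03 without the set term, since 1 control array lies in the set of 3. TNFAIP3 was the single member of an NF-kB and inflammatory list called in this comparison (1 of 31 measured, against 0.0860% of all genes higher).

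COXFA4L3 was low with either antagonist alone, in arrays that are themselves among the 7 low ones. With ICI it was 0.14 and with G15 0.21 above the second control, where the median gene was 0.16 higher in either array. Relative to the median gene these differences were -0.02 and 0.05. CXCL1 and TNFAIP3 were lower with G15, by -0.50 and -0.93, among the 170 and 54 lowest differences of all genes, while IL6 was 0.55 higher. The fit gave COXFA4L3 at 0.12 ± 0.28 (SE) for ICI and 0.24 ± 0.28 for G15.

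**Figure D4:**
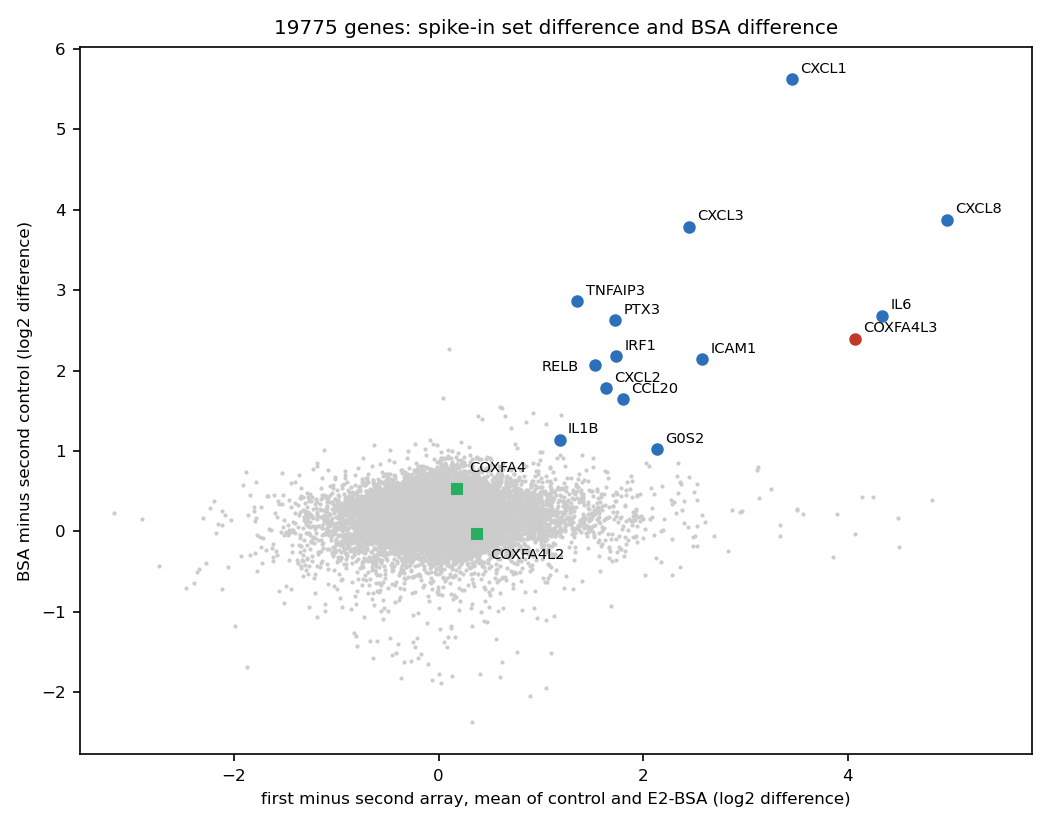
For each of 19775 genes, the first minus the second array averaged over control and E2-BSA (horizontal axis) and BSA minus the second control (vertical axis), both log2 differences. COXFA4L3 (red) lies at 4.07 and 2.40, and its relatives COXFA4 and COXFA4L2 (green squares) lie at 0.18 and 0.53 and at 0.38 and -0.03. The genes in blue were chosen, like COXFA4L3, for differences above 1 in control, in E2-BSA and with BSA. Their place on the plot therefore follows from the choice.

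Few genes shared both features of COXFA4L3. Chosen after its values were seen, the genes higher by more than 1 in the first than in the second array of both control and E2-BSA, and higher by more than 1 in BSA than in the second control, numbered 14 (0.0708% of all genes). Besides COXFA4L3 they were the chemokine genes CXCL1, CXCL2, CXCL3, CXCL8 and CCL20, the cytokine genes IL6 and IL1B, the adhesion receptor gene ICAM1, the transcription factor genes RELB and IRF1, TNFAIP3, PTX3, which encodes a secreted pattern recognition protein, and G0S2, which encodes an inhibitor of triglyceride lipase. COXFA4L3 ranked behind CXCL8 (4.97) and IL6 (4.34) in the mean set difference, and 7th of the 14 in BSA minus the second control.

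Likeness to COXFA4L3 was measured by Pearson's r between arrays, over genes with an SD of at least 0.5. Over the 8 arrays, 179 other genes were ranked, and the 10 highest were CSF3 (r = 0.999), ICAM1 (0.976), CD83 (0.965), IL6 (0.960), CCL20 (0.958), EFNA1 (0.953), CXCL3 (0.933), RELB (0.932), CXCL1 (0.925) and IRF1 (0.904). Of these 10, 7 belong to the NF-kB and inflammatory list, which was drawn up with these results known and holds 12 of the 179 ranked genes (6.70%). A gene could pass the SD filter through the BSA array alone, where COXFA4L3 was high too. EFNA1, for example, ran from -0.36 to 0.09 in the 7 low arrays and stood at 2.03 with BSA. The filter thus favoured a strong r of either sign, and no conclusion is drawn from the share in the list. TNFAIP3 ranked 18th with r = 0.684. The 3 lowest were SELENOS (-0.964), ZNF266 (-0.965) and NXN (-0.969).

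Most of these correlations changed without the BSA array. Over the 7 arrays without BSA, r with COXFA4L3 was 0.317 for IL6, -0.450 for CXCL1 and -0.140 for TNFAIP3, and without the 2 arrays farthest from the COXFA4L3 median it was 0.286, -0.405 and -0.108. Spearman's rho over the 8 was 0.524 for IL6, -0.024 for CXCL1 and 0.048 for TNFAIP3. The 3 lowest genes turned positive without BSA, SELENOS at 0.569, ZNF266 at 0.761 and NXN at 0.508, while CD83 was at 0.795 (rho over the 8 arrays 0.810). CSF3, which encodes a granulocyte growth factor, kept r = 0.967 without BSA and had a rho of 1 over the 8 arrays. Its values among the 7 low arrays ran from -0.26 in the second E2-BSA array to 0.03 with G15, the same 2 ends as COXFA4L3, and it stood at 1.46 with BSA. CSF3 was picked as the highest of 179 genes by r over these same arrays, so its likeness among the 7 follows in part from the choice. The order of COXFA4L3 in those arrays has no support, and no conclusion is drawn from the likeness. CSF3 parted from COXFA4L3 in the set of 3, with 0.17 in the first control, -0.01 with estradiol and 0.69 in the first E2-BSA array.

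Over all 11 arrays, which pool the sets, the 5 genes most like COXFA4L3 of 1020 ranked were the long noncoding RNA LINC00973 (r = 0.987), ICAM1 (0.984), CHST15 (0.979), TLR2 (0.978), an innate immune receptor gene, and CCRL2 (0.974), a chemokine-receptor-like gene. LINC00973 stood at 1.42, 1.30 and 0.92, ICAM1 at 2.03, 1.61 and 1.32, CHST15 at 0.96, 0.92 and 0.62, TLR2 at 0.87, 0.86 and 0.66, and CCRL2 at 1.20, 0.99 and 0.72 in the first control, the estradiol and the first E2-BSA array. All 5 had the order of COXFA4L3 within the set of 3, which the choice by correlation over these arrays favours. IL6 ranked 10th (r = 0.968), CXCL1 469th (0.763) and TNFAIP3 520th (0.514). ICAM1 was the single gene among both the 5 and the 10 highest, and its 3 probe sets differed, at 2.43, 3.50 and 0.50 for BSA minus the second control.

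The related genes COXFA4 and COXFA4L2 were not called for BSA minus control or between the sets, and their differences there were smaller than those of COXFA4L3. COXFA4 stood at 0.05, 0.06 and 0.02 in the first control, estradiol and first E2-BSA arrays, where COXFA4L3 was highest. In the set of 8 it stood between -0.54 with ICI and -0.02 with E2-BSA and G15 in 7 arrays, and at 0.42 with BSA, its highest value of all 11. In the fit COXFA4 was at 0.63 ± 0.18 (SE) for BSA minus control (limma, adjusted p = 0.235) and at 0.18 ± 0.14 between the sets (adjusted p = 0.400). COXFA4L2, the hypoxia-linked relative, was at 0.51 in the first control, 0.50 with ethanol, and between -0.17 and 0.14 in the other 9 arrays. It was at -0.09 ± 0.16 for BSA minus control (adjusted p = 0.773) and at 0.38 ± 0.12 between the sets (adjusted p = 0.0616).

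Genes of the complex that COXFA4L3 joins were also set beside it. Of 16 structural subunits of complex IV encoded in the nucleus 0 were called for BSA minus control, of 22 assembly factors 0, and of 33 measured subunits of complex I, to which COXFA4 was once assigned, 0, where limma called 0.354% of all genes. At so small a share, lists of this size are likely to hold no call, so these counts are at the background. The medians of the 3 lists were 0.24, 0.15 and 0.26, beside 0.17 for all genes. COX6B2 was at 0.46 ± 0.16 (SE), the assembly factor gene PET117 at -0.71 ± 0.17 and NDUFV2 at 0.52 ± 0.14. Between the spike-in sets 2 structural subunits were called higher (COX7B at 0.86 ± 0.17 and COX6A1 at 0.37 ± 0.11) and 2 lower (COX7B2 at -0.70 ± 0.10 and COX4I1 at -0.48 ± 0.11). These 4 of 16 set beside 24.1% of all genes are a share at the background. Of the 22 assembly factors 3 were called higher and 7 lower between the sets, and of the 33 complex I subunits 7 higher and 8 lower, beside 14.1% and 10.0% of all genes.

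The members of the NF-kB and inflammatory list were higher in the single BSA array. Of 31 measured NF-kB and inflammatory genes, 13 were called higher and none lower for BSA minus control, where 0.126% of all genes were called higher, and their median was 0.83 above that of all genes. The list was drawn up with these results known and holds the comparison genes. The count is therefore a description, and no conclusion on inflammatory genes in general is drawn from it. Besides the comparison genes, CXCL2 was at 1.84 ± 0.16 (SE, limma, adjusted p = 0.00492) and CXCL3 at 4.03 ± 0.32 (adjusted p = 0.00435). Within the 8 arrays alone 14 were called, without the set term 0, and 4 without the second control or without the second E2-BSA array. For E2-BSA minus BSA, which uses the same BSA array, 11 were called lower (0.101% of all genes lower), 9 within the 8 arrays alone, 0 without the set term, without the second control or without the second E2-BSA array, and 7 without the first E2-BSA array. CCL20 was at -1.81 ± 0.17 (adjusted p = 0.00676). Between the sets 19 of the 31 were called higher and 1 lower, beside 14.1% and 10.0% of all genes, and PTGS2, the inducible cyclooxygenase, was at 3.12 ± 0.17.

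Metabolic enzymes known from inflamed cells made a list of 8. For BSA minus control 0 of them were called, beside 0.354% of all genes, a count at the background. Their median was 0.44, beside 0.17 for all genes. NAMPT, of NAD synthesis, was at 0.46 ± 0.19, KYNU, of tryptophan breakdown, at 0.46 ± 0.19 and NOS2 at 0.46 ± 0.19 (SE, limma, adjusted p = 0.295, 0.296 and 0.296). Between the sets 4 were called higher, KYNU at 2.34 ± 0.15, NAMPT at 1.40 ± 0.15, NOS2 at 0.55 ± 0.15 and IDO1 at 0.48 ± 0.12, and SOD2 was called lower at -1.84 ± 0.23, beside 14.1% and 10.0% of all genes. The 4 probe sets of KYNU were higher in the set of 3 by 1.43 to 3.63, those of NAMPT ran from -0.84 to 3.33, and SOD2 was read here by 1 probe set.

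The neighbours of COXFA4L3 on chromosome 15 were looked at too. The nearest measured genes were AFG2B, 9195 bases to the left, and GATM, the creatine synthesis gene, 28383 bases to the left, and to the right SLC30A4, a zinc transporter gene, at 46266 bases and HMGN2P46 at 77796 bases. In BSA minus control GATM was at 0.04 ± 0.13 (SE), AFG2B at 0.02 ± 0.42, SLC30A4 at 0.18 ± 0.17 and HMGN2P46 at 0.31 ± 0.23. The value of AFG2B averages probe sets that went apart. For BSA minus the second control 215694_at was at -1.09, 218933_at at 0.27 and 222163_s_at at 0.40. BLOC1S6, farther to the right, was at -0.61 ± 0.25 (limma, adjusted p = 0.295). Of the 8 nearest measured genes 0 were called by limma with BSA, beside 0.354% of all genes. Between the sets 1 was called, beside 24.1% of all genes: HMGN2P46, at 0.62 ± 0.18 (limma, adjusted p = 0.0396). With 8 genes, neither count can be told from the share over all genes. Larger differences that limma did not call were those of AFG2B for ICI, at -1.05 ± 0.33 (adjusted p = 0.280), and of HMGN2P46 for estradiol minus control, at 0.87 ± 0.23 (adjusted p = 0.470). HMGN2P46 stood highest with estradiol, at 1.22, where COXFA4L3 was second.

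Macrophages are a cell type known for COXFA4L3, and markers of that lineage were set beside it. The mean of 10 measured markers ran from 0.10 to 0.27 in the set of 3 and from -0.15 to 0.08 in the 7 low arrays, and was 0.04 with BSA, within the range of those 7. For BSA minus control 0 of the 10 were called, with LYZ at 0.56 ± 0.13 (SE, limma, adjusted p = 0.212). Between the sets 3 were called higher, LYZ at 0.55 ± 0.10, AIF1 at 0.44 ± 0.10 and CD14 at 0.75 ± 0.21, where 14.1% of all genes were. The part of these markers in the set difference of COXFA4L3 was not tested. Markers of basal and mesenchymal lines averaged -0.06 to 0.02 in the set of 3 and -0.08 to 0.04 in the 7 low arrays. Their mean was 0.18 with BSA, above that of every other array. The median of all genes was also highest in the BSA array, at 0.10. In the fit the median of these markers was 0.26 for BSA minus control, beside 0.17 for all genes. Of these 5 markers 0 were called for either difference (0.354% of all genes with BSA and 24.1% between the sets). Of 6 luminal markers 1 was called higher and 1 lower between the sets, beside 14.1% and 10.0% of all genes.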

How the data were processed

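The 11 arrays had been labelled and hybridised by the manufacturer's protocol, per the labels' protocols. The authors deposited log2 values centred per probe set; the log base was taken as 2 from the values, and summarisation, normalization and the centring set are not given in the sources used here. In 51.7% of probe sets the 2 values nearest 0 mirrored each other within 1e-05. Of the probe sets 41091 had 1 gene symbol in the platform annotation, 1801 several and 11721 none, and 62 were controls; a gene is the mean of its probe sets, and symbols were checked by gene ID (41037 found). Fits were made with limma (version 3.58.1, R 4.3.3), a trended prior variance, additive terms for 6 treatments and the spike-in set, 3 residual degrees of freedom and Benjamini-Hochberg adjustment over 19775 genes. On simulated data for BSA minus control, 99% of 200 changes of 2 were recovered, with 10 false calls. These data were drawn from the fitted model with independent normal noise. They therefore check the fit only, and cannot show how far real calls rest on single arrays. Named genes were COXFA4L3, the 3 comparison genes, its relatives, the 2 nearest genes on each side, called list members (5 of smallest p in each direction, or 3 if none was called) and the genes most like it; examples beyond this are given as such. Members and lists were chosen with earlier results of these data known. Alternatives changed the set term, model, arrays, normalization, prior, probe sets and filter.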

Additional observations from a re-analysis of the deposited data

How the results depend on the processing

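Without the term for the spike-in set, COXFA4L3 was at 0.21 for BSA minus control, -0.66 for E2-BSA minus BSA, -2.03 for ethanol and 1.99 for estradiol minus control, and with a mean per group and no set term at 0.061, -0.81, -2.19 and 1.83. E2-BSA minus control was -0.44 with and without that term. With quantile normalization BSA minus control was 3.09 and E2-BSA minus BSA -3.37. Leaving out 1 control or E2-BSA array gave 2.00 to 2.40 for BSA minus control, -2.94 to -2.54 for E2-BSA minus BSA, -0.54 to -0.14 for E2-BSA minus control, -0.25 to 0.15 for ethanol and -0.51 to 0.71 for estradiol. Genes called were 70 for BSA minus control, 61 for E2-BSA minus BSA and 17 for ethanol minus control. They were 5, 0 and 0 without the set term, 0 in each with a mean per group and no set term, and 212, 188 and 8 over probe sets. For ethanol they were 36 with quantile normalization. With 1 array left out they ran from 4 to 58, 0 to 47 and 0 to 15, the lowest without the second control (4, 0 and 0) or the second E2-BSA array (5, 0 and 0). The cause was not tested. Calls for E2-BSA minus control were 0 throughout. The numbers of the control and E2-BSA arrays coincide with the spike-in sets, and first minus second correlated over genes between the groups (r = 0.814). With the replicate block on those 4 arrays COXFA4L3 was at -0.75 ± 0.29 (SE) for E2-BSA minus control and without it at -0.75 ± 1.91, with 0 genes called in both. The 8 arrays alone could give no value for estradiol. No signal over background is given, so a floor under the 7 low values could not be looked for.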

Other observations

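AFG2B, the nearest measured gene to COXFA4L3 and chosen after its values were seen, was low in the ICI, G15 and E2-BSA with ICI arrays, at -1.24, -1.19 and -1.03, and between -0.23 and 0.13 in the other 8. Its probe set 222163_s_at stood at -2.36, -2.38 and -2.40 in those 3 arrays and 218933_at at -1.30, -1.24 and -0.98, whereas 215694_at stood at -0.06, 0.06 and 0.28. COXFA4L3 was at -1.17, -1.09 and -1.34 in the same arrays, which are among its 7 low ones.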
